A study of Mus musculus with 2 samples.

Results

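Hypoxia response genes were examined in nuclei of the thick ascending limb (TAL), the segment of the nephron that reabsorbs sodium chloride through the cotransporter NKCC2 (Slc12a1). The 9 genes, taken as a named list from 32227 genes in the count tables, were Hif1a, Epas1, Egln1, Egln3, Vhl, Vegfa, Slc2a1, Bnip3 and Pdk1. The nuclei came from kidneys of male B6 mice with the genotype label WT and an age label of 12 with no unit. Per the study's methods, the mice carried an inducible NKCC2-Cre and a CAG-Sun1/sfGFP allele, so that after tamoxifen the nuclei of Slc12a1-expressing cells bore a green fluorescent tag and could be sorted. This line and treatment were shared by both groups, and the labels did not say how many animals were pooled. The cortex library was made from a superficial strip of kidney, and the medulla library from the tissue that remained, which included deep cortex. Each region was 1 library, so there was no replicate check, no test between groups was possible, and a difference between libraries cannot be told apart from a difference between regions.

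The hypoxia response turns on the HIF transcription factors. When oxygen is plentiful, prolyl hydroxylases (the Egln genes) modify the HIF alpha subunits, the VHL ubiquitin ligase binds the modified protein, and it is degraded. When oxygen is short, the alpha subunits persist, pair with ARNT and switch on genes for blood vessel growth, glucose uptake, glycolysis and mitophagy. The outer medulla of the kidney works at low oxygen tension, and its TAL spends much oxygen on salt transport. Because much of this control acts on protein stability, transcript levels of Hif1a and Epas1 do not report on the activity of their proteins.

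HIF binds the letters ACGTG or GCGTG. Both were searched, on both strands, in the 250 bases before the start of the canonical transcript of each gene (GENCODE M39 on GRCm39). At least 1 match was held by 6 of the 9 genes, beside 41.3% of 21757 promoters of protein-coding genes with windows of the same length. Bnip3 held 5 matches, where 18.2% of all promoters held 2 or more, and Vhl, Vegfa and Pdk1 held 0 in this window. A match describes the letters only, and the palindrome CACGTG counts on both strands. Windows of 3 target genes are shown to let the densest window, that of Bnip3, be compared with those of Slc2a1 and Vegfa, which were both higher in inner than in cortex-type TAL-α. Matches are in capitals. The Slc2a1 window lies at chr4:118965658-118965907 on the plus strand, that of Vegfa at chr17:46343310-46343559 on the minus strand, and that of Bnip3 at chr7:138511254-138511503 on the minus strand.
Slc2a1: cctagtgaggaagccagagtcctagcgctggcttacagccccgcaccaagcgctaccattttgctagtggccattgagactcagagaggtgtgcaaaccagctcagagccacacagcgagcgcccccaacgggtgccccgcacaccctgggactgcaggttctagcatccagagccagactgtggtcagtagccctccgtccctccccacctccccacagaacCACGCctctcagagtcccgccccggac
Vegfa: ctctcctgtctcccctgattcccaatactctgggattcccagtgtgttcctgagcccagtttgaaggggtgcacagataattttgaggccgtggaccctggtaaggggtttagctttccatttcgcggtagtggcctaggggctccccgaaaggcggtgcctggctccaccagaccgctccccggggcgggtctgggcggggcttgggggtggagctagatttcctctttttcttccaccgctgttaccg
Bnip3: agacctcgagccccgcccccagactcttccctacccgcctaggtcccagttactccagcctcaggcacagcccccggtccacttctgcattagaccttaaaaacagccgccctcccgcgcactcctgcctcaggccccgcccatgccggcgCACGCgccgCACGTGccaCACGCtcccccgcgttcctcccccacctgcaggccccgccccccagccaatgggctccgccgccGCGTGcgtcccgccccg

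In the same annotation the factors lie at chr12:73948149-73996321 (Hif1a) and chr17:87061087-87140838 (Epas1). The regulators lie at chr8:125635308-125676865 (Egln1), chr12:54225767-54250673 (Egln3) and chr6:113600920-113608599 (Vhl). The target genes lie at chr17:46327919-46343309 (Vegfa), chr4:118965908-118996365 (Slc2a1), chr7:138490690-138511253 (Bnip3) and chr2:71703488-71734202 (Pdk1). Hif1a is overlapped over its whole length by the antisense gene Gm15283, which held 291 counts in both libraries together beside 3376 for Hif1a in TAL nuclei. Whether the counting used strand was not given in the sources used here.

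The cortex library held 5442 called barcodes (16457300 counts, median 2427 per barcode) and the medulla library 8121 (20947211 counts, median 2430), with 0 barcodes in common. Barcodes with at least 10 Slc12a1 counts were kept as TAL, which left 5218 (95.9%) in the cortex and 7967 (98.1%) in the medulla. Classes were assigned by raw counts in this order: macula densa (MD) by Nos1 + Pappa2 of at least 3, TAL-β by Tmem52b of at least 2, TAL-γ by Tmem207 + Gpc5 of at least 2, and TAL-α for the rest. The cortex gave 2824 TAL-α, 1493 TAL-β, 248 TAL-γ and 653 MD barcodes. The medulla gave 571 TAL-β, 3542 TAL-γ, 78 MD and 3776 TAL-α barcodes, and the last were divided by Enox1 + Thsd4 into cortex-type (at least 5 counts, 1137), intermediate (3 or 4 counts, 309) and inner (at most 2 counts, 2330).

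Genes that the rule did not use were checked against these names. In the medulla, claudin 16 (Cldn16) was at a level of 249.9 CPM (counts of the gene per 1000000 counts of the class) in TAL-β against 107 in cortex-type TAL-α, claudin 10 (Cldn10) at 55.8 against 219, and Kcnj10 (Kir4.1) at 170 against 8.10. Cortex TAL-β stood less apart, with Cldn10 at 116 CPM against 216 in TAL-α, but at 14.5 once barcodes with other cells' markers were left out, with the distal convoluted tubule (DCT) judged by Slc12a3 alone. The cortex TAL-γ class went against its name, since under that setting it carried Cldn16 at 204 CPM and Cldn10 at 48.9. It enters none of the 7 comparisons below, and is kept in ranges over classes and in the likeness of patterns. Ptgs2 marked MD, with 85.8 CPM in the cortex and 126.5 in the medulla. Markers of other kidney cells were counted in every class. The DCT marker Slc12a3 was at 148 CPM in medullary TAL-β against 2.49 in cortex-type TAL-α. In the cortex it was at 263 CPM in TAL-β, 107 in MD and 61.1 in TAL-α. The summed level of 8 proximal tubule markers was 1954 to 3652 CPM over the cortex classes and 284 to 642 over the medulla classes, and that of 8 endothelial markers was 110 to 224 and 35.8 to 62.4, with all 8 of each list counted in each class but medullary TAL-β (7 endothelial) and medullary MD (4 endothelial).

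Levels are CPM of the summed counts of a class with exact Poisson 95% intervals, which cover counting error only. Over all TAL barcodes the factor genes held 3376 (Hif1a) and 574 (Epas1) counts. The regulators held 1456 (Egln1), 478 (Egln3) and 305 (Vhl), and the targets 7843 (Vegfa), 2124 (Slc2a1), 882 (Bnip3) and 3315 (Pdk1). Vhl, Egln3 and Epas1 were thus sparse. Among classes with at least 10 counts of the gene, the highest level was 4.11 times the lowest for Vegfa, 3.61 times for Epas1 and 2.73 times for Slc2a1. The value for Vegfa rests on 11 counts in medullary MD, and those for Epas1, Egln1 and Bnip3 have the cortex TAL-γ class as the highest. The same quotient was 2.04 for Egln3, and between 1.38 (Hif1a) and 1.89 for the other 5.

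**Figure D1:**
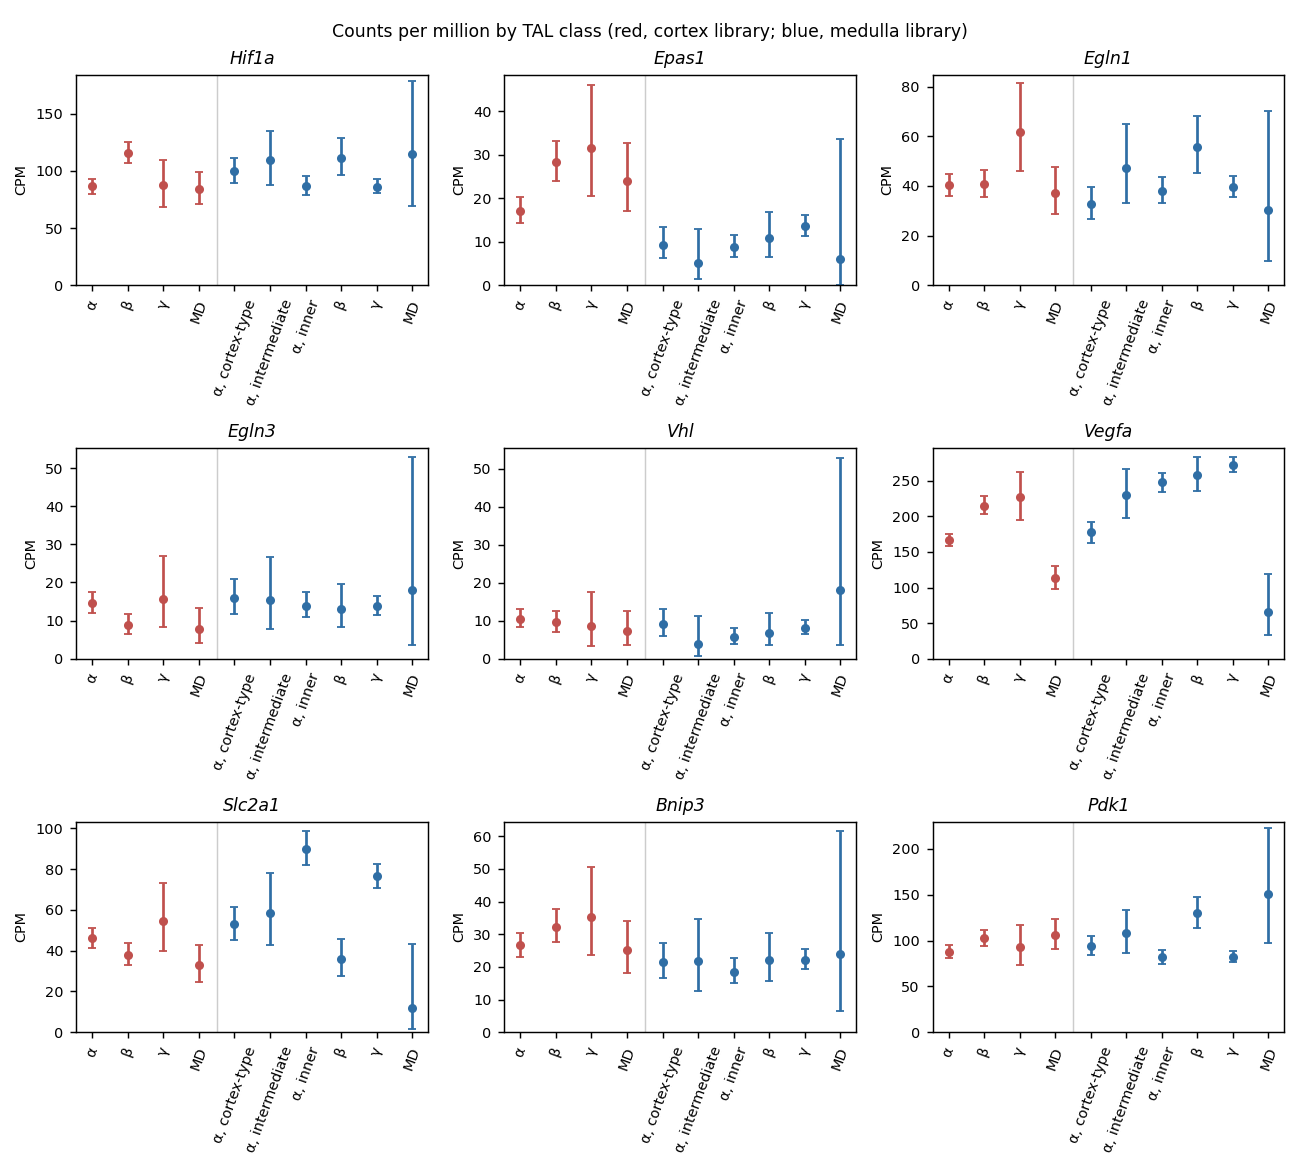
Level of each of the 9 genes (CPM, vertical axis starting at 0 in each panel) in the 4 cortex classes (red) and 6 medulla classes (blue), with exact Poisson 95% intervals. Vegfa was high in inner TAL-α, TAL-β and TAL-γ of the medulla (248, 258 and 272 CPM). Slc2a1 was high in inner TAL-α and TAL-γ of the medulla (90.1 and 76.4 CPM) but not in its TAL-β (35.9). Epas1 was higher in all 4 cortex classes (17.1 to 31.5 CPM) than in any medulla class (at most 13.6), and Hif1a spanned a narrow range.

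The first comparison asked whether hypoxia response genes differ between inner and cortex-type TAL-α of the medulla library. Inner cells held at most 2 counts of the cortical genes Enox1 and Thsd4 together. Slc2a1, which encodes the glucose transporter GLUT1, and Vegfa, the main growth signal for blood vessels, were higher in the inner cells. Slc2a1 was at 90.1 CPM (95% interval 82.2 to 98.5) in inner TAL-α, at 58.6 (42.9 to 78.1) in intermediate and at 53.0 (45.3 to 61.6) in cortex-type TAL-α, an inner to cortex-type ratio of 1.70 (1.42 to 2.04). Vegfa was at 248 CPM (235 to 261), 230.5 (198 to 267) and 177 (163 to 192), a ratio of 1.40 (1.27 to 1.54). The intervals of inner and cortex-type cells did not overlap for either gene, while intermediate cells could not be told from cortex-type cells for Slc2a1 nor from inner cells for Vegfa.

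For the other genes no difference between inner and cortex-type cells was detectable with all barcodes. Hif1a was at 86.9 CPM in inner and 99.7 in cortex-type TAL-α, with a ratio of 0.872, and Pdk1, the kinase that restrains pyruvate entry into the citric acid cycle, was at 81.7 and 94.1, with a ratio of 0.868. Bnip3, a receptor that targets mitochondria for removal, was at 18.6 and 21.5. Egln1, the main oxygen sensing hydroxylase, was at 38.1 and 32.7, and Egln3, a hydroxylase that HIF itself induces in many cells, was at 13.9 and 15.9. The ratios of all 5 genes had intervals that held 1. Epas1 and Vhl had fewer than 100 counts in both groups together. Without barcodes of other cells' markers, which left 1205 inner and 532 cortex-type barcodes, the Egln1 ratio was 1.52 (1.02 to 2.32), that of Egln3 turned to 1.51 (0.788 to 3.09) and that of Vhl was 0.316 (0.135 to 0.707) on 11 and 18 counts. With DCT judged by Slc12a3 alone the intervals of all 3 held 1, and that of Pdk1 (0.848, 0.729 to 0.988) did not. With doublets removed the Hif1a ratio was 0.846 (0.729 to 0.982).

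A difference of at least 1.5 times either way, among genes with at least 100 counts in both groups together, was taken as the size of interest. It was met by 1 of the 7 genes that could be judged (Slc2a1), beside 14.3% of the 8455 genes so judged. The median ratio was 0.876 over the 7 genes and 1.00 over all of those genes. Median depth was 2284.5 counts per inner barcode against 2700 per cortex-type barcode, and a rule on raw counts puts shallow barcodes among the inner cells. With the split made per 10000 counts, the Slc2a1 ratio was 1.64. Without barcodes of other cells' markers the Slc2a1 ratio was 1.51 (1.17 to 1.97), and that of Vegfa passed 1.5 times, at 1.56 (1.33 to 1.83). With DCT judged by Slc12a3 alone the Vegfa ratio was 1.40.

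Over finer bins of Enox1 + Thsd4 (0, 1 to 2, 3 to 4, 5 to 9 and at least 10 counts), Slc2a1 in the medulla was at 91.7, 85.1, 58.6, 60.5 and 47.5 CPM. Medullary Vegfa was at 257, 220.5, 230.5, 201.4 and 159.7. Slc2a1 thus lay high in the lowest 2 bins and lower in the other 3, and Vegfa was highest in the lowest bin and lowest in the top bin. In the cortex library the same bins gave Slc2a1 levels between 44.7 and 53.0 CPM, and no such difference was detectable, though the lowest bin rested on 5 counts (17.2 to 124). Cortex Vegfa, in contrast, ran from 286 CPM in the lowest bin (43 barcodes) to 156 in the top bin (1929 barcodes), and median depth ran from 1923 to 2558 counts over the same bins. High Vegfa in cells with few Enox1 and Thsd4 counts was thus seen in both libraries, and high Slc2a1 in such cells in the medulla library, while the few such cortex cells left its level there uncertain.

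**Figure D2:**
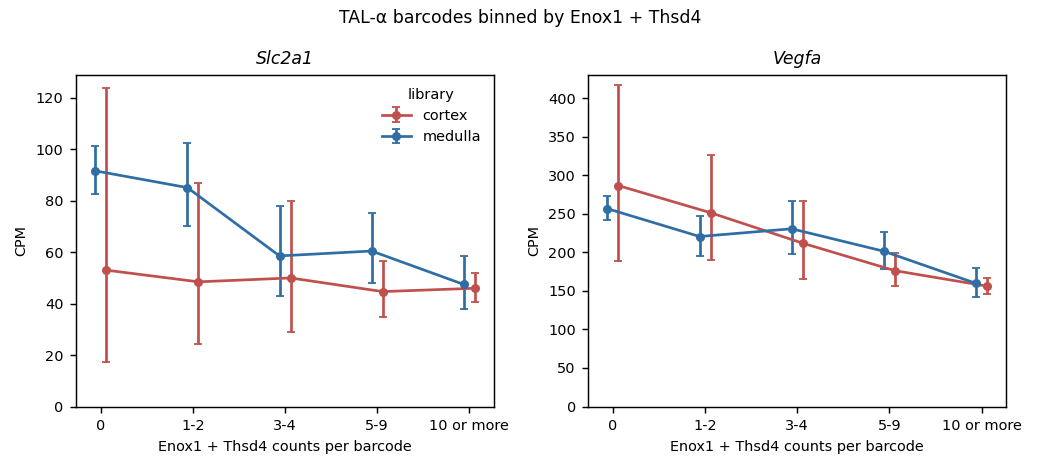
Levels (CPM, with exact Poisson 95% intervals) of Slc2a1 and Vegfa in TAL-α barcodes binned by Enox1 + Thsd4 counts (horizontal axis), in the cortex (red) and medulla (blue) libraries. Medullary Slc2a1 is at 91.7 CPM in the lowest bin and 47.5 in the top bin while cortical Slc2a1 lies between 44.7 and 53.0, and Vegfa is lowest in the top bin of both libraries.

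RNA outside the cells was measured in uncalled barcodes with at most 50 counts. It held Vegfa at 216 CPM in the cortex and 296 in the medulla, and Slc2a1 at 47.6 and 95.4, and it also held Slc12a1 at 13445 and 21294. In the medulla every class lay below the free RNA level for both genes, and in the cortex the highest class was at 227 CPM for Vegfa and 54.5 for Slc2a1. Called barcodes with at most 2 Slc12a1 counts (158 and 145), which were led by proximal tubule markers (9797 and 8734 CPM), held Vegfa at 263 and 242 CPM. The first value lay above every cortex class and the second within the range of the medulla classes. Slc2a1 was low in these low-Slc12a1 barcodes, at 12.2 and 17.7 CPM, as was Pdk1, at 36.5 and 7.06. In the medulla a Slc2a1 count was found in 18.0% of inner and 13.5% of cortex-type TAL-α barcodes, beside 6.90% of the low-Slc12a1 barcodes, whose median depth was 3924 counts. With each barcode thinned to 1000 counts, the shares were 9.20%, 5.46% and 1.38%. These barcodes were chosen for few Slc12a1 counts, so that their low Slc2a1 is no measure of the free RNA in TAL barcodes. Free RNA was estimated from the proximal tubule list as 38.1% of the counts of inner and 67.4% of those of cortex-type TAL-α. Every proximal tubule count was taken as free RNA, so these are upper values. Leaving out barcodes of other cells' markers, with DCT judged by Slc12a3 alone, kept 2294 of 2330 inner and 1100 of 1137 cortex-type barcodes. The list then fell from 361 to 54.8 CPM in inner and from 638 to 73.1 in cortex-type cells. That filter itself selects on the list. The other genes were in free RNA too, at levels near those of the classes. In the cortex and the medulla it held Hif1a at 84.4 and 79.2 CPM, Egln1 at 38.5 and 30.2, Vhl at 8.27 and 7.30 and Pdk1 at 79.4 and 73.0. Epas1 was at 34.3 CPM in cortex free RNA, above every cortex class, and at 18.2 in that of the medulla.

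TAL-β cells, which carry claudin 16 and reabsorb calcium and magnesium, were compared with TAL-α of the same library. In the cortex, Hif1a, Epas1 and Vegfa were higher in TAL-β and Egln3 and Slc2a1 lower. Hif1a was at 116 CPM (107 to 125) in TAL-β and 86.4 (80.0 to 93.1) in TAL-α, a ratio of 1.34 (1.20 to 1.499). Vegfa was at 215 (203 to 228) and 167 (158 to 176), a ratio of 1.29 (1.19 to 1.40). Both genes had intervals that did not overlap between the classes.

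Egln3 went the other way, at 8.80 CPM (6.44 to 11.7) in cortex TAL-β and 14.6 (12.0 to 17.5) in TAL-α, a ratio of 0.604 (0.420 to 0.857) that rested on 46 and 116 counts. Slc2a1 was at 38.1 and 46.1 CPM, a ratio of 0.826 (0.692 to 0.984). Pdk1, at 103 and 87.9 CPM, had a ratio of 1.17 (1.04 to 1.31). Egln1, Vhl and Bnip3, with ratios of 1.01, 0.907 and 1.21, had intervals that held 1. At least 1.5 times either way was met by 2 of the 9 genes (Epas1 and Egln3), beside 6.88% of 10383 genes, with a median ratio of 1.17 over the 9 and 1.01 over all of those.

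Epas1, the second HIF alpha subunit and a gene strongly expressed in endothelium, was at 28.3 CPM (23.9 to 33.2) in cortex TAL-β and 17.1 (14.3 to 20.2) in TAL-α, a ratio of 1.66 (1.30 to 2.11). The 8 endothelial markers moved with it, at 224 and 110 CPM, and the 8 proximal tubule markers were at 3304 and 2667. Cortex barcodes with at least 1 endothelial count (617) held Epas1 at 68.1 CPM and the others at 13.4, a ratio of 5.08 (4.10 to 6.30). With barcodes of other cells' markers left out, the TAL-β to TAL-α ratio was 0.854 (0.384 to 1.77), or 0.765 (0.440 to 1.29) when DCT was judged by Slc12a3 alone. The higher Epas1 of cortex TAL-β was not seen without those barcodes. Under the same settings the Hif1a ratio was 1.28 and 1.31, that of Vegfa 1.49 and 1.45 and that of Egln3 0.492 and 0.576, on the same side as before. The Bnip3 ratio was then 1.82 (1.23 to 2.68) and 1.54 (1.15 to 2.04), past 1.5 times, and the Slc2a1 ratio could no longer be told from 1, at 0.783 (0.563 to 1.08) and 0.852 (0.686 to 1.05).

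In the medulla, TAL-β was set against cortex-type TAL-α. Vegfa was again higher in TAL-β, at 258 CPM (235 to 283) against 177 (163 to 192), a ratio of 1.46 (1.29 to 1.65). Slc2a1 was again lower, at 35.9 (27.6 to 45.9) against 53.0 (45.3 to 61.6), a ratio of 0.677 (0.499 to 0.909). Against inner TAL-α of the same library the contrast in Slc2a1 was wider, with inner TAL-α at 2.51 times (1.93 to 3.32) the TAL-β level, and Vegfa could not be told apart, with TAL-β at 1.04 times (0.936 to 1.16) the inner level. Against cortex-type TAL-α, Vegfa and Slc2a1 thus lay on opposite sides in medullary TAL-β.

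Egln1 and Pdk1 were also higher in medullary TAL-β. Egln1 was at 55.8 CPM (45.3 to 68.0) against 32.7 (26.8 to 39.6), a ratio of 1.70 (1.28 to 2.27), and Pdk1 at 129.8 against 94.1, a ratio of 1.38 (1.16 to 1.64). Hif1a was at 112 against 99.7, and its ratio of 1.12 had an interval (0.932 to 1.34) that held 1, as did that of Bnip3 (1.03). At least 1.5 times was met by 1 of the 6 genes with enough counts (Egln1), beside 8.27% of 6856 genes, with median ratios of 1.25 and 0.986. Against inner TAL-α, TAL-β held 1.59 times the Pdk1 (1.35 to 1.87), 1.47 times the Egln1 and 1.28 times the Hif1a. Against cortex-type TAL-α without barcodes of other cells' markers, the Egln1 ratio was 2.71 (1.69 to 4.38) on 43 and 34 counts. It was 1.79 (1.32 to 2.41) with DCT judged by Slc12a3 alone. Under these settings Vegfa was at 1.66 and 1.48, Pdk1 at 1.57 and 1.36 and Slc2a1 at 0.548 and 0.704, with intervals that left out 1. Those of Hif1a (1.23 and 1.14) and Bnip3 (0.944 and 1.08) held 1.

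**Figure D3:**
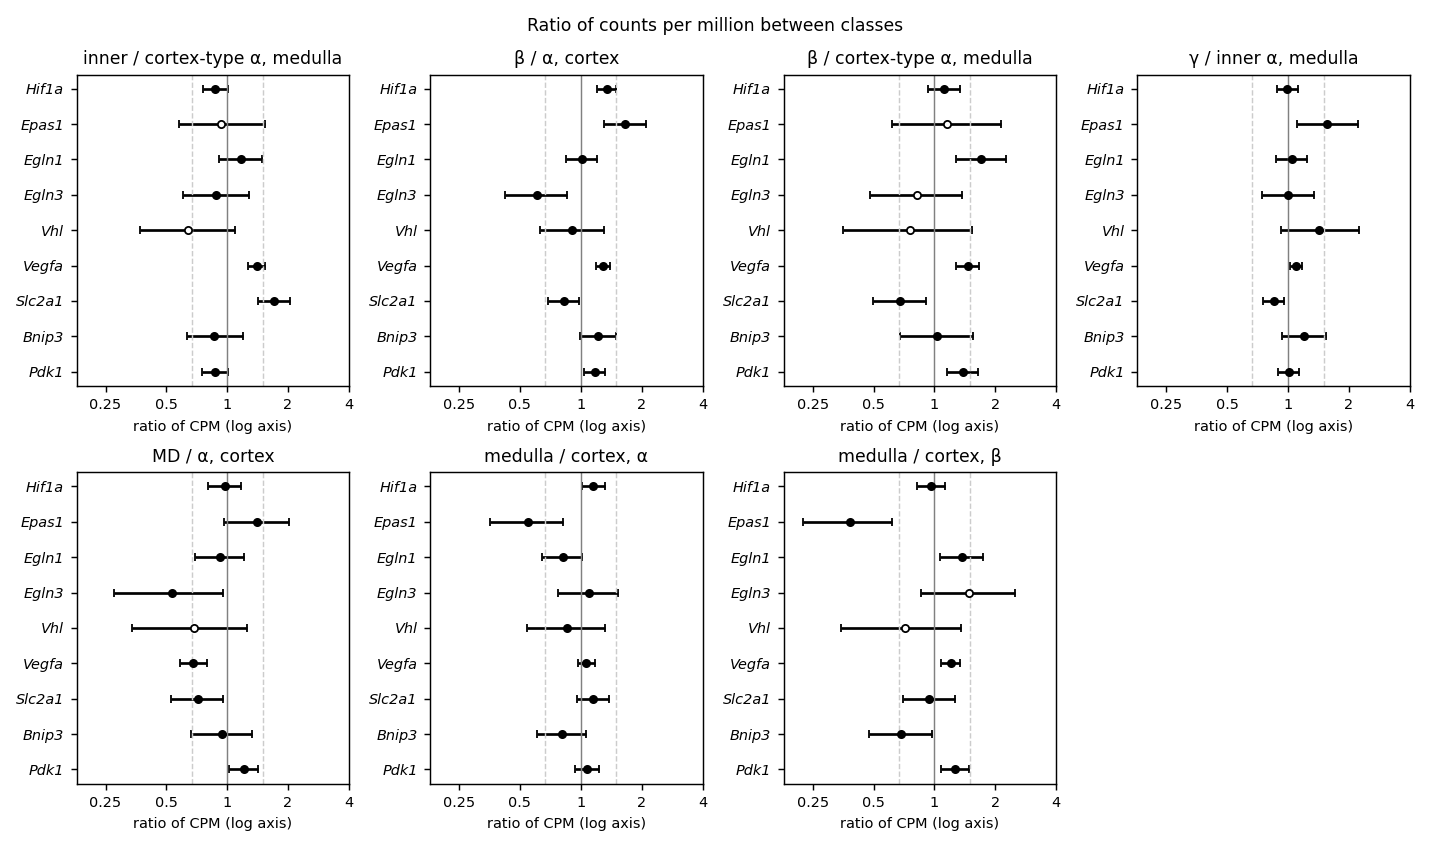
Ratio of levels (log axis, with 95% intervals) of the 9 genes in each of the 7 comparisons. Dashed lines mark 1.5 times either way, and open points mark genes with fewer than 100 counts in both groups together. Past the dashed lines among filled points lie Slc2a1 in inner TAL-α (1.70), Epas1 and Egln3 in cortex TAL-β (1.66 and 0.604), Egln1 in medullary TAL-β (1.70), Epas1 in TAL-γ (1.56), Egln3 in MD (0.535), and Epas1 between the libraries in both classes (0.548 and 0.382).

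TAL-γ cells carry claudin 10 together with Kcnj10, and in the medulla library they were compared with inner TAL-α. The 2 classes were close. Vegfa was at 272 CPM (262 to 283) against 248 (235 to 261), a ratio of 1.10 (1.03 to 1.18), and Slc2a1 at 76.4 (70.8 to 82.3) against 90.1 (82.2 to 98.5), a ratio of 0.848 (0.754 to 0.955). Hif1a (86.2 and 86.9 CPM), Egln1 (39.6 and 38.1), Egln3 (13.9 in both) and Pdk1 (82.2 and 81.7) had ratios from 0.992 to 1.04. Vhl, the substrate receptor of the ubiquitin ligase, was at 8.17 and 5.76 CPM, a ratio of 1.42 with an interval from 0.922 to 2.23. Bnip3, at 22.2 and 18.6 CPM, had a ratio of 1.20.

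Epas1 was the 1 of 9 genes at 1.5 times or more between these classes, beside 2.93% of 9871 genes. It was at 13.6 CPM (11.3 to 16.2) in TAL-γ and 8.73 (6.41 to 11.6) in inner TAL-α, a ratio of 1.56 (1.10 to 2.23). With barcodes of other cells' markers left out the ratio was 1.09, and with DCT judged by Slc12a3 alone it was 1.29 (0.883 to 1.93), neither of which could be told from 1. The endothelial list was at 54.4 CPM in TAL-γ against 35.8 in inner TAL-α and the proximal tubule list at 420.5 against 361, and medulla barcodes with at least 1 endothelial count (494) held Epas1 at 31.2 CPM against 9.43 in the others.

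MD cells, which sense luminal salt at the end of the TAL, were compared with TAL-α of the cortex. Vegfa, Slc2a1 and Egln3 were lower in MD and Pdk1 was higher, with all barcodes kept. Vegfa was at 113 CPM (97.8 to 131) in MD and 167 (158 to 176) in TAL-α, a ratio of 0.680 (0.581 to 0.793). This was the lowest Vegfa level of the cortex classes, and the 78 medullary MD barcodes were lower still, at 66.3 CPM (33.1 to 119) from 11 counts. With barcodes of other cells' markers left out, the cortex ratio was 0.459 (0.340 to 0.610).

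Egln3 was at 7.80 CPM (4.15 to 13.3) in MD and 14.6 (12.0 to 17.5) in TAL-α, a ratio of 0.535 (0.277 to 0.952) with 13 counts in MD. Slc2a1 was at 33.0 (24.8 to 42.9) and 46.1 (41.5 to 51.0), a ratio of 0.716 (0.529 to 0.952), and 2 counts of it were found in medullary MD. Without barcodes of other cells' markers the Slc2a1 ratio could not be told from 1, at 0.872 (0.597 to 1.25), or 0.756 (0.547 to 1.03) with Slc12a3 alone for DCT. Pdk1 was at 106 and 87.9 CPM, a ratio of 1.21 (1.02 to 1.43), and at 150.6 CPM in medullary MD, 1.60 times (1.02 to 2.41) its level in cortex-type TAL-α. Without barcodes of other cells' markers the cortex Pdk1 ratio could not be told from 1, at 1.17 (0.926 to 1.46). It was 1.22 (1.02 to 1.46) with Slc12a3 alone for DCT. Hif1a, Egln1, Bnip3 and Epas1 had ratios of 0.972, 0.923, 0.946 and 1.40, with intervals that held 1. Unlike in the other comparisons within a library, the Epas1 ratio did not fall without barcodes of other cells' markers. It was 1.80 (0.892 to 3.48) on 15 and 28 counts, and 1.73 (0.995 to 2.91) with Slc12a3 alone for DCT. Over 9 alternatives it ranged from 1.22 to 1.98. Vhl had too few counts. At least 1.5 times was met by 1 of the 8 genes with enough counts (Egln3), beside 20.9% of 9448 genes. The median ratios were 0.934 and 1.01, and median depth was 1883 counts per MD barcode against 2425.

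To compare regions within a class, cortex-type TAL-α of the medulla library was set against all TAL-α of the cortex library, and TAL-β against TAL-β. Only the medulla TAL-α were chosen by Enox1 + Thsd4. Of the 2824 cortex TAL-α barcodes, 2537 held at least 5 of these counts and 146 at most 2. In TAL-α with all barcodes, 7 of the 9 genes had ratios that could not be told from 1, between 0.808 (Bnip3) and 1.15 (Slc2a1), and Vegfa was at 177 CPM in the medulla and 167 in the cortex. Hif1a was at 99.7 CPM and 86.4, a ratio of 1.15 (1.01 to 1.32). Epas1 was the 1 gene of 9 past 1.5 times, beside 10.7% of 9728 genes, at 9.35 CPM (6.31 to 13.3) in the medulla and 17.1 (14.3 to 20.2) in the cortex, a ratio of 0.548 (0.356 to 0.818). The median ratio over the 9 genes was 1.06, and over all genes judged it was 0.970. Without barcodes of other cells' markers Egln1 was lower in the medulla, with a ratio of 0.559 (0.373 to 0.819), or 0.753 (0.587 to 0.960) with Slc12a3 alone for DCT. Vegfa was then higher, at 1.19 (1.001 to 1.41) and 1.21 (1.08 to 1.35), and the Hif1a ratio, at 1.12 and 1.11, could not be told from 1.

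In TAL-β, Vegfa was at 258 CPM in the medulla and 215 in the cortex, a ratio of 1.20 (1.07 to 1.34). Pdk1 was at 129.8 and 103, a ratio of 1.26 (1.08 to 1.48), and Egln1 at 55.8 and 40.7, a ratio of 1.37 (1.07 to 1.75). Bnip3 was lower in the medulla, at 22.2 and 32.3 CPM, a ratio of 0.687 (0.472 to 0.978). Hif1a and Slc2a1, with ratios of 0.963 and 0.942, could not be told apart between the regions. Epas1 was at 10.8 CPM (6.51 to 16.9) and 28.3 (23.9 to 33.2), a ratio of 0.382 (0.224 to 0.618), and was the 1 of 7 genes past 1.5 times, beside 15.9% of 8347 genes. The median ratio was 0.963 over the 7 genes and over all genes judged. With free RNA subtracted by the upper estimate from the proximal tubule list, the Vegfa ratio turned to 0.872 and that of Pdk1 to 0.884. With Slc12a3 alone for DCT, Pdk1 was at 1.03 (0.863 to 1.22) and Egln1 at 1.28 (0.967 to 1.70), neither of which could be told from 1, while Vegfa was at 1.24 (1.09 to 1.40).

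The Epas1 contrasts between libraries moved with other cells' markers. The endothelial list was at 110 CPM in cortex TAL-α against 36.8 in medullary cortex-type TAL-α, and the proximal tubule list at 2667 against 638. Without barcodes of other cells' markers the medulla to cortex ratio of Epas1 was 1.14 in TAL-α and 1.23 in TAL-β. With DCT judged by Slc12a3 alone it was 0.906 and 1.10, and Epas1 lay between 6.4 and 16.8 CPM in the cortex classes and between 2.7 and 10.2 in the medulla classes. Bnip3 and Vegfa too were higher in cortex barcodes with at least 5 proximal tubule counts, at 1.65 and 1.37 times (1.27 to 1.48 for Vegfa) their levels in the others. Slc2a1 was at 0.54 and Pdk1 at 0.49 times theirs. In the medulla library the Vegfa ratio was 0.972 (0.848 to 1.11). The medulla to cortex ratio of Bnip3 in TAL-β was 0.662 (0.346 to 1.20) with barcodes of any other cells' markers left out.

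**Figure D4:**
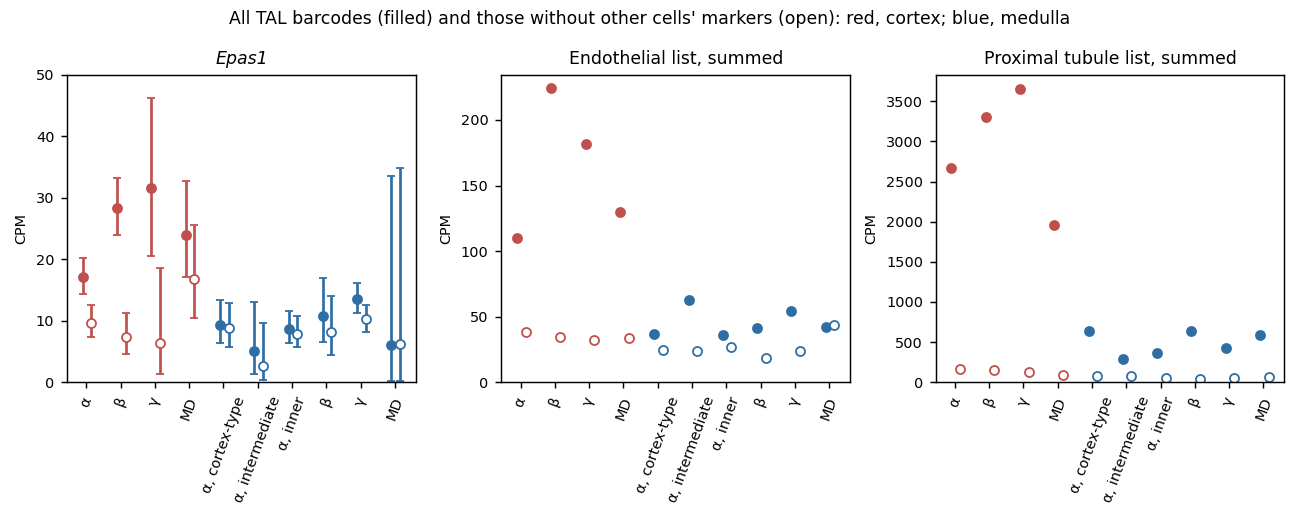
Levels (CPM) of Epas1, of the summed endothelial markers and of the summed proximal tubule markers in the classes of both libraries, for all TAL barcodes (filled points) and without barcodes that held other cells' markers, with DCT judged by Slc12a3 alone (open points). Epas1 and both lists are higher in the cortex classes with all barcodes, and the Epas1 level of cortex TAL-β is 28.3 CPM with those barcodes and 7.4 without.

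Other genes of the pathway were taken as a list of 12 HIF regulators and a list of 30 HIF targets. Among regulators, 1 of 11 with enough counts was past 1.5 times between inner and cortex-type TAL-α, beside 14.3% of all genes judged. It was Cited2, which competes with HIF for its coactivators, at 12.8 and 20.6 CPM. In TAL-β of the cortex it was 1 of 11 (6.88% of all genes) and of the medulla 1 of 8 (8.27%), in both cases Arnt2, a partner of HIF alpha subunits, at 47.8 against 167 CPM in the cortex (ratio 0.286, 0.249 to 0.327) and 65.5 against 223 in the medulla (ratio 0.293). In MD it was 3 of 11 (20.9% of all genes), all higher: Cited2 at 63.6 against 20.2 CPM, Arnt2 at 296 against 167 and Hif1an, a hydroxylase that blocks coactivator binding, at 21.0 against 13.3. It was 0 of 11 in TAL-γ (2.93% of all genes) and between regions in TAL-α (10.7%), and 1 of 11 in TAL-β between regions (15.9%), Egln2, at 14.2 CPM in the medulla and 26.0 in the cortex. Arnt itself stayed between 147 and 176 CPM in all classes.

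Among HIF targets, 4 of 17 were past 1.5 times between inner and cortex-type TAL-α, with 3 lower and 1 higher in inner cells, beside 14.3% of all genes, 9.24% lower and 5.03% higher. The carbonic anhydrase gene Car12 was at 14.5 CPM in inner and 101.6 in cortex-type cells (ratio 0.143, 0.110 to 0.183), Ndrg1 at 41.0 and 88.8, and the repressor gene Bhlhe40 at 36.6 and 75.7, while Mxi1, a MYC antagonist, was at 72.1 and 35.2. These 3 were lower where Slc2a1 and Vegfa were higher. The median ratio of the 17 targets was 1.18, against 1.00 over all genes. In MD, 10 of 21 targets were past 1.5 times, 5 either way, against the 20.9% of all genes. Pfkfb4 was higher (30.6 against 11.3 CPM), and Hk1 (107 against 284), Pfkfb3 (4.80 against 11.9) and Pgk1 (28.2 against 63.7), all enzymes of glycolysis or its control, were lower.

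Between regions, 3 of 21 targets in TAL-α and 4 of 19 in TAL-β were past 1.5 times, all lower in the medulla. Over all genes the shares were 10.7% and 15.9%, and 918 of 1043 and 1114 of 1328 of these genes were lower in the medulla, so that the lower side was the common one. Ak4, a mitochondrial adenylate kinase, was at 12.5 CPM in the medulla and 52.6 in the cortex in TAL-α (ratio 0.237, 0.167 to 0.328) and at 17.1 and 67.9 in TAL-β. Ndrg1 was at 88.8 and 325 in TAL-α and at 119.5 and 362 in TAL-β, and Car12 at 101.6 and 207 in TAL-α and at 68.9 and 201.4 in TAL-β. In TAL-β, Ldha was at 12.5 and 26.4. Whether these contrasts hold without barcodes of other cells' markers was not tested. The proximal tubule list was at 638 CPM in the medulla and 2667 in the cortex in TAL-α, and at 642 and 3304 in TAL-β. Without those barcodes fewer genes could be judged. Those past 1.5 times went from 1043 of 9728 (10.7%) to 338 of 6438 (5.25%) in TAL-α. In TAL-β they went from 1328 of 8347 (15.9%) to 290 of 3892 (7.45%). In TAL-β against TAL-α, 1 of 21 targets in the cortex (Pfkfb3, 19.7 and 11.9 CPM) and 1 of 15 in the medulla (Ero1a, 46.1 and 30.2) were past 1.5 times, beside 6.88% and 8.27% of all genes, and in TAL-γ 1 of 21 (Ndrg1, 62.9 and 41.0), beside 2.93%.

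The likeness of patterns was measured as Pearson's r of log2(CPM + 1) over 9 classes of at least 50 barcodes, leaving out intermediate TAL-α, among 8269 genes. These points share libraries and depth, and the values are a description. The genes most like Slc2a1 were Hdlbp (0.990), Ttc7 (0.986) and Igf1 (0.986). Those most like Vegfa were Mylk (0.992), Sult1d1 (0.990) and the sodium-proton exchanger gene Slc9a3 (0.986), and those most like Epas1 included Aadat (0.982) and Alk (0.965). For Hif1a the highest value was 0.848 (Prr15l), for Pdk1 0.941 (Tmem116), for Egln1 0.953 (Zcchc4) and for Bnip3 0.977 (Tango2). Among the genes themselves, Vegfa and Slc2a1 ran together (0.845), Hif1a ran with Pdk1 (0.736), and Slc2a1 ran against Pdk1 (-0.919). The medullary MD point, however, rests on 78 barcodes with 2 counts of Slc2a1, 11 of Vegfa and 1 of Epas1. It lay far below the other classes for Slc2a1 and Vegfa, and r without it was not calculated.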

How the data were processed

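Nuclei were captured by PIPseq, sequenced and counted per gene with PIPseeker on GRCm39. The annotation release and the use of strand were not given in the sources used here. Per the labels, bcl2fastq and Seurat 4.4.0 were among the tools. The authors deposited filtered and raw matrices of UMI counts, 1 pair per region, made before their own removal of doublets and free RNA. The deposited cluster and projection files were not used. The raw matrices served to measure free RNA.

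Counts were summed per class and divided by the class total to give CPM, with exact Poisson 95% intervals. Ratios have exact conditional binomial intervals, and shares Clopper-Pearson intervals. The intervals of CPM and of ratios cover counting error only and not the spread between nuclei, and those of shares cover the sampling of barcodes. Each region was 1 library, and no test was made. Main values keep doublets, which were scored with Scrublet (scanpy 1.11.5) as an alternative. It marked 359 cortex barcodes, and 3 medulla barcodes, for which the highest 5% of scores (406) were taken instead. The calculation of ratios was tested on simulated Poisson counts, which held no spread between nuclei, no free RNA and no doublets. The 9 genes and the lists were chosen with earlier results of these data known. Named genes were the 9 genes, up to 4 genes of each list per comparison with the largest ratio either way, the 3 most alike genes of each of the 9 with at least 500 counts, and the class checks. Some of the genes so named are not reported here. Python 3.11.15, numpy 2.4.6, scipy 1.17.1, pandas 2.3.3 and matplotlib 3.10.9 were used.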

Additional observations from a re-analysis of the deposited data

How the results depend on the processing

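Over 14 alternatives, of which 2 were added after seeing the data, 607 of 670 ratios of the 9 genes stayed within their first interval, 56 moved outside it and 7 reversed, meaning that a ratio past 1.5 times crossed 1. These 7 were of Epas1. In TAL-β against TAL-α of the cortex its ratio became 0.854 without barcodes of other cells' markers, 0.765 with DCT judged by Slc12a3 alone and 0.778 with doublets removed as well. Between libraries it became 1.14 in TAL-α under the first of these settings, and 1.23, 1.10 and 1.24 in TAL-β under the 3. Ratios under 1.5 times crossed 1 too, among them those of Vegfa (0.872) and Pdk1 (0.884) between libraries in TAL-β with free RNA subtracted, and, without barcodes of other cells' markers, those of Egln3 in inner TAL-α (1.51) and Bnip3 between libraries in TAL-α (1.27). The Slc2a1 ratio of inner to cortex-type TAL-α ranged from 1.51 to 1.75 over 10 alternatives. With free RNA subtracted, neither this ratio nor that of Vegfa had a finite value, since no Slc2a1 and no Vegfa was left in cortex-type TAL-α. Counts of the 9 genes past the threshold also moved, and are given with the share of all genes judged in brackets. At 2-fold the count was 0 in inner TAL-α, in TAL-β of both libraries, in TAL-γ, in MD and in TAL-α between libraries (0.618% to 7.93%). With free RNA subtracted, the counts were 5 in inner TAL-α (53.6%), 6 in cortex TAL-β (63.1%), 3 in medullary TAL-β (43.0%), 2 in TAL-γ (16.4%) and 4 in MD (52.5%). They were 3 in each comparison of libraries (45.5% in TAL-α and 66.9% in TAL-β). That setting left hardly any Vegfa in MD (a ratio of 0.00108), and its estimates of free RNA are upper values. Without barcodes of other cells' markers the counts were 3 in inner TAL-α (15.7%), 1 in cortex TAL-β (9.76%) and 3 in medullary TAL-β (10.8%). They were 0 in TAL-γ (2.68%) and 0 in TAL-β between libraries (7.45%). With Slc12a3 alone for DCT they were 0 in TAL-γ (2.48%), 0 in both comparisons of libraries (4.51% and 7.28%), and 2 in MD (26.7%). With doublets removed as well they were 1 in cortex TAL-β (9.69%), 2 in medullary TAL-β (9.40%) and 2 in MD (30.7%). They were 0 in TAL-γ (2.72%) and in both comparisons of libraries (4.24% and 6.91%). Averaging over barcodes gave 1 in cortex TAL-β (8.49%), 2 in medullary TAL-β (9.51%), 2 in MD (29.0%), and 0 in TAL-γ (2.90%). With at least 20 Slc12a1 counts it was 2 in medullary TAL-β (8.51%) and 2 in MD (20.3%). Stricter classes gave 2 in medullary TAL-β (9.47%) and 3 in MD (24.3%), doublets removed 2 in MD (25.2%), and a minimum of 30 counts 2 in inner TAL-α (19.9%). In medullary TAL-β the split per 10000 counts gave 3 (9.28%) and the use of all medullary TAL-α 2 (11.3%). Over all genes, the number past 1.5 times between libraries went from 1043 (10.7%) to 338 (5.25%) in TAL-α without barcodes of other cells' markers. In TAL-β it went from 1328 (15.9%) to 290 (7.45%). It went from 714 (6.88%) to 6548 (63.1%) in cortex TAL-β with free RNA subtracted. With all medullary TAL-α it went from 567 (8.27%) to 1048 (11.3%) in TAL-β and from 289 (2.93%) to 613 (5.78%) in TAL-γ. At 2-fold it was 61 (0.618%, TAL-γ) to 749 (7.93%, MD), and with a minimum of 30 counts 994 (7.66%) to 3473 (27.0%). The cause was not tested. Thinning to 1000 counts per barcode lowered 88 of 90 detection shares. A barcode cannot gain a detection by thinning, so this tally does not show which genes are limited by depth. Egln3, Vhl and Epas1, with 478, 305 and 574 counts over all TAL barcodes, are limited by depth. No paired analysis was possible because each region had 1 library, and for the same reason no library could be left out.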

Other observations

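Epo, which encodes erythropoietin and was in the list of HIF targets, was looked at more closely after its values were seen. It held 717 counts over all TAL barcodes and was at 16.6 to 30.1 CPM in every class, in 4.21% to 6.58% of barcodes and with at most 3 counts in any. Uncalled barcodes held it at 29.0 CPM in the cortex and 43.8 in the medulla, and called barcodes with at most 2 Slc12a1 counts at 20.9 and 7.06. In GENCODE M39 the gene is drawn at chr5:137481282-137531772 on the minus strand, a span that overlaps 7 other genes, among them Gnb2 on the same strand (1064 counts) and Gigyf1 on the other strand (3289 counts). How reads shared by these genes were counted was not given in the sources used here, and the part that they play in the Epo counts was not tested.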
